A study of Mus musculus with 12 samples.

Results

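The genotype by ligature interaction asks, gene by gene, whether the difference between Cybb-/- and wild-type (WT) gingiva was the same in ligated and in naive tissue. It is the difference on the log2 scale between CybbKO and WT in ligated gingiva minus the same difference in naive gingiva, which equals the ligature response of CybbKO minus that of WT. All 12 of the 12 libraries enter it, and no measured value was used to choose them. Of the 21965 genes in the count table, 15046 passed the filter on low counts and were tested. A value above 0 means that CybbKO stood higher against WT with the ligature than without it, and a value of 1 means that this ratio was larger by a factor of 2 on the linear scale.

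Gingival mRNA was sequenced from C57BL/6 (WT) and Cybb-/- (CybbKO) mice under 12 weeks of age, with 3 age- and sex-matched mice in each of the 4 groups. Ligated tissue surrounded a maxillary molar that had carried a silk ligature for 8 days, and naive tissue came from mice without a ligature. The Cybb deletion is present in every cell of the mouse. According to the study's methods, WT mice were purchased and the CybbKO line was provided by another laboratory, so genotype and colony of origin cannot be told apart, and the labels do not say that the mice were littermates.

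Cybb encodes gp91phox, the membrane subunit of the phagocyte NADPH oxidase Nox2, which passes electrons from NADPH to oxygen and so makes superoxide in neutrophils and macrophages. Loss of Nox2 function is the cause of chronic granulomatous disease, in which patients have both infections and excess inflammation. A ligature gathers oral bacteria at the gum margin, draws leukocytes into the gingiva and leads to loss of connective tissue and alveolar bone.

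Each library held between 27958819 and 42613423 counts on genes. Krt13, the keratin of non-cornified oral epithelium, was the most abundant gene in all 12, at 2.08% to 4.39% of the scaled counts, and Y-linked genes were detected in all 12. Several libraries stood apart from their groups in the genes of other tissues. WT naive replicate 3 had 36837 CPM (read counts scaled to the effective library size) summed over 17 salivary and mucous gland genes, where the other 11 libraries had 81.8 to 6131 CPM. CybbKO ligated replicate 2 had 6852 CPM summed over 19 fibroblast and collagen genes against 18118 and 16571 CPM in the other CybbKO ligated libraries, and 151 CPM of adipocyte genes against 38.2 to 67.5 CPM in the other 11. It also had 912 CPM of interferon-gamma response genes against 329 and 381 CPM in the rest of its group. WT ligated replicate 3 had the highest erythroid sum, 1339 CPM, and WT naive replicate 1 had 344 CPM of interferon-gamma response genes against 136 and 144 CPM in the other WT naive libraries. Many results that rest on one of these are given with and without it. Where a gene is given without such a value, the size of its dependence on these libraries is not given.

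The edgeR test called 0 of the 15046 genes for an interaction at an adjusted p under 0.05, a share of 0%. The smallest adjusted p was 1.00. DESeq2 also called 0, with 447 genes at an unadjusted p under 0.05 (2.46% of the 18143 genes it tested). In edgeR 342 genes, or 2.27% of those tested, had an unadjusted p under 0.05, fewer than evenly spread p-values would give. Of these, 270 (1.79%) had an interaction above 0 and 72 (0.479%) below it, while 8018 of all tested genes (53.3%) lay above 0. The median interaction over all tested genes was 0.02. The size of the error sets what could have been seen: the median standard error was 0.30, the 95% interval reached a median of 0.65 to either side, and the median standard error was 0.22 for the 2008 genes over 100 CPM and 0.47 for the 2233 genes between 1 and 5 CPM. Every interaction below is therefore a measured difference that did not pass the adjusted threshold, and its adjusted p rounds to 1.00. A value in brackets after an interaction is its standard error, and "p under 0.05" means the unadjusted p. The 95% interval of a named gene excluded 0, which is the same as a p under 0.05, except where the text says that it held 0.

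The numbers of genes that passed in each genotype alone were far apart, and they do not stand in for this test. Ligated against naive tissue called 348 genes higher (2.31%) and 133 lower (0.884%) in WT, and 1497 higher (9.95%) and 457 lower (3.04%) in CybbKO, at an adjusted p under 0.05. Of the genes called, 410 were shared, 1544 were called in CybbKO alone and 71 in WT alone. Among the 1544, the ligature response had the same sign in both genotypes for 1521, with a median of 0.59 in WT and 1.14 in CybbKO, and 213 (13.8%) had an unadjusted p under 0.05 for the interaction. So did 22 of the 410 (5.37%), 9 of the 71 (12.7%) and 2.27% of all tested genes. The called genes were chosen on the same libraries, so the medians and shares describe them and test nothing.

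The 342 genes with a p under 0.05 mostly crossed over between the tissues. Of the 270 genes above 0, 248 were above WT in the ligated libraries labelled CybbKO and below WT in the naive ones, 20 were above in both tissues and 2 below in both. Their median difference from WT was 0.64 in ligated and -0.47 in naive tissue, and the median ligature response was 0.39 in WT and 1.59 in CybbKO. The ligated difference was the larger of the pair for 159 of them and the naive difference for 111. Of the 72 genes below 0, 70 showed the reverse crossing, with medians of -0.59 in ligated and 0.44 in naive tissue. These shapes follow in part from selecting large differences between differences.

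**Figure D1:**
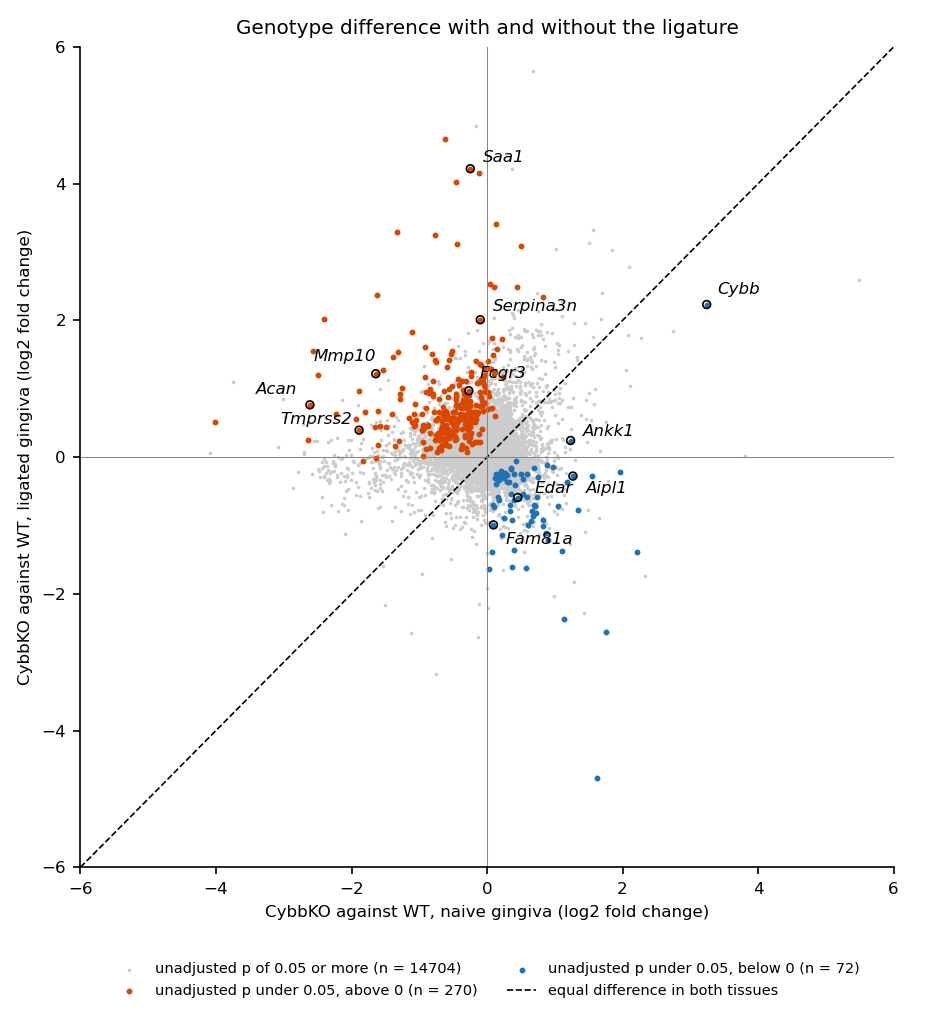
Log2 fold change of CybbKO against WT in naive gingiva (x axis) and in ligated gingiva (y axis) for the tested genes, with 1 gene outside the axes; on the dashed line the interaction is 0. The 270 orange genes lie above the line, mostly at negative x and positive y, the 72 blue genes lie below it, and Cybb lies far to the right with large positive differences in both tissues.

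Without any fitted spread, 28 genes (0.186% of those tested) had all 3 libraries labelled CybbKO on one side of all 3 WT libraries in ligated tissue and on the other side in naive tissue. For 15 of them (0.0997%) CybbKO was above WT when ligated and below when naive, and for 13 (0.0864%) the reverse held. In comparison, 37 genes (0.246%) were separated in the same direction in both tissues.

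Cybb itself stood against its label. Its level was 5.60, 5.38 and 4.19 CPM in WT naive, 41.6, 56.3 and 45.9 CPM in CybbKO naive, 8.41, 15.2 and 12.8 CPM in WT ligated and 56.1, 51.1 and 63.7 CPM in CybbKO ligated libraries. The lowest CybbKO library exceeded the highest WT library in either tissue. Counts summed over the gene therefore cannot check the labels, and CybbKO here means the libraries labelled so. The interaction of Cybb was -1.01 (standard error 0.30), because the ligature response was 1.26 in WT and 0.25 in CybbKO on the log2 scale. On the linear scale the same 12 values gave a difference of differences of 1.96 ± 6.03 CPM (standard error from the 4 group SDs), so the sign depends on the scale.

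Cytosolic partners of Nox2 lay on the other side of 0. Ncf1 and Ncf4 encode p47phox and p40phox, which join gp91phox to form the active oxidase. Their interactions were 0.82 (standard error 0.36) and 0.98 (0.42). Ncf4 was at 1.01, 1.14 and 1.90 CPM in WT naive and 1.53, 0.888 and 1.53 CPM in CybbKO naive libraries, and at 2.34, 2.43 and 2.85 CPM in WT ligated and 5.69, 4.44 and 4.59 CPM in CybbKO ligated libraries. The genotypes overlapped in naive tissue and were apart in ligated tissue. Cyba, which encodes the membrane partner p22phox, had an interaction of 0.78 with a wider error (standard error 0.54) and an interval that held 0, and it was 0.11 without WT naive replicate 3. Of the 12 tested genes of the NADPH oxidase list (14 listed, with Nox1 and Noxa1 below the filter), 3 were at p under 0.05 above 0 and 1, Cybb, below it. The 3 fell to 0 without CybbKO ligated replicate 1, CybbKO naive replicate 2, WT ligated replicate 1 or WT ligated replicate 2, and to 1 with scaling by library size only. Their number was also 1 without CybbKO ligated replicate 3, WT naive replicate 2 or WT naive replicate 3, and the list median of 0.30 was 0.08 without the last.

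The acute phase list, chosen like the others with earlier results of these data known, held the largest share of genes with a small p. These genes encode plasma proteins and local defence proteins that interleukin-6 and interleukin-1 induce through STAT3, C/EBP and NF-kB. Of 15 listed genes 14 were tested, 13 had an interaction above 0 and 10 had a p under 0.05 above 0, beside the 1.79% over all tested genes, and the median was 1.86 beside 0.02. This share describes the list and tests nothing. Saa1 and Saa2 passed the filter on low counts only through the CybbKO ligated libraries, so their values are no support. The other 12 had a median of 1.42, with 8 at p under 0.05, and the 10 members with at least 10 counts in every library had a median of 1.08, with 6. The median difference from WT was 1.88 in ligated and -0.01 in naive tissue. When single libraries were left out, the number at p under 0.05 ran from 5, without CybbKO ligated replicate 1 or WT naive replicate 3, to 9 and the median from 1.44 to 2.08. 4 Serpina3 and 3 Saa genes are among the 10, and these are families of near-identical copies between which the counting could have split reads, so they are not separate observations.

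Serpina3n, an extracellular inhibitor of serine proteases, had the smallest p of all genes with a mean of at least 1 CPM. It was at 7.07, 8.19 and 9.91 CPM in WT naive, 10.1, 5.72 and 7.66 CPM in CybbKO naive, 5.43, 17.4 and 10.4 CPM in WT ligated and 47.1, 47.1 and 39.7 CPM in CybbKO ligated libraries. The first 9 libraries overlapped and the CybbKO ligated libraries lay above all of them. Its interaction was 2.11 (standard error 0.48, 95% interval 1.05 to 3.17), and it stayed between 1.76 and 2.59 with each library left out.

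Among the serum amyloid A genes, Saa3 had a larger interaction than Serpina3n, with a larger error. Saa3, the form made by macrophages and epithelium, was at 2.07, 0.569 and 2.52 CPM in WT naive, 1.44, 1.03 and 1.28 CPM in CybbKO naive, 2.66, 8.14 and 49.2 CPM in WT ligated and 251, 35.8 and 236 CPM in CybbKO ligated libraries. CybbKO replicate 2 lay below WT replicate 3, so the ligated genotypes overlapped, and the interaction was 3.57 (standard error 1.41). Saa1 had an interaction of 4.47 (standard error 1.36) at levels under 0.4 CPM in every library other than the CybbKO ligated ones, which had 1.57, 0.829 and 9.77 CPM, and without the last of these it was 2.70. It passed the filter only through the CybbKO ligated libraries, so its value is no support.

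The other members spanned a range. Hp, haptoglobin, which binds free haemoglobin, was at 2.04, 6.44 and 4.39 CPM in WT ligated and 25.1, 20.7 and 26.7 CPM in CybbKO ligated libraries, with an interaction of 2.06 (standard error 0.88). Lbp, which carries lipopolysaccharide to CD14, had an interaction of 1.17 (standard error 0.44), and Cp, the copper carrier ceruloplasmin, one of 0.83 (standard error 0.35). Lcn2, the siderophore-binding neutrophil and epithelial protein, overlapped between the genotypes in both tissues and had an interaction of 0.61 (standard error 0.83), with an interval that held 0.

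Promoter sequences of 2 acute phase genes and 1 interferon-gamma response gene with interactions over 2, chosen after their values were seen, show which inducible elements lie near their starts. They are given from RefSeq (GRCm38.p6), from 250 bases before the start to 50 after it on the gene's strand. Capitals mark matches, on either strand, to TTGCNNAA (a C/EBP-type element), TTCNNNGAA (a STAT-type element) or the core of an interferon-stimulated response element (GAAA, any 2 bases, GAAA). The windows are Serpina3n at chr12:104406458-104406757 on the plus strand, Saa3 at chr7:46715627-46715926 on the minus strand and Cxcl10 at chr5:92348840-92349139 on the minus strand.
Serpina3n: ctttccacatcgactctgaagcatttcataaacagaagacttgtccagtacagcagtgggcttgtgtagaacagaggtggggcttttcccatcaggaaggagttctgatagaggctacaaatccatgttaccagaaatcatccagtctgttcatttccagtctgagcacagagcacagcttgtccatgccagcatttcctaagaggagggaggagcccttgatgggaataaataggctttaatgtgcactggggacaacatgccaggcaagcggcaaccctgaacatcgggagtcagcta
Saa3: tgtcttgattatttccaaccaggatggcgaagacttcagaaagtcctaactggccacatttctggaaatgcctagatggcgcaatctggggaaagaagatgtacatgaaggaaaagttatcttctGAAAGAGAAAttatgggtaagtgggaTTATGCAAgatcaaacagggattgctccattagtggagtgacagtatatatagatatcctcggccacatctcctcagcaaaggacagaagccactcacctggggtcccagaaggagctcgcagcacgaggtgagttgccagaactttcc
Cxcl10: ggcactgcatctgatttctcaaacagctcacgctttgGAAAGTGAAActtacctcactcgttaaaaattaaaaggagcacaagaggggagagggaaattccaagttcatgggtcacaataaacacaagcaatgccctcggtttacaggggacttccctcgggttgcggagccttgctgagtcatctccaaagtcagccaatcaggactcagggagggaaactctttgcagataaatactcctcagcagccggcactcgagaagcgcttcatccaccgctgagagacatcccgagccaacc

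Serpina3n had no match in this window, Saa3 had a C/EBP-type match starting 99 bases and an interferon-type match starting 125 bases before the start, and Cxcl10 had an interferon-type match 213 bases before it. The C/EBP-type element was in 7 of 11 acute phase promoters with a window (63.6%) and in 10.7% of all 27025 gene promoters. The STAT-type element was in 3 of the 11 acute phase promoters (27.3%), in 8 of 16 interferon-gamma response promoters (50.0%) and in 8.35% of all. The interferon element was in 1 of the 11 acute phase promoters (9.09%), in 11 of the 16 interferon-gamma response promoters (68.8%) and in 3.49% of all promoters. It was also in 11 of 18 type I interferon response promoters (61.1%). The C/EBP-type element was in 2 of the 16 interferon-gamma response promoters (12.5%). These are matches of letters and no measure of binding.

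Most interferon-gamma response genes lay above 0, and the size of their interaction depended on single libraries. Of 22 tested genes 21 lay above 0 and 2 had a p under 0.05, with a median of 1.13. Cxcl9, a chemokine for T cells that interferon-gamma induces, was at 18.9, 0.980 and 0.0729 CPM in WT naive, 3.35, 5.38 and 4.24 CPM in CybbKO naive, 0.299, 0.523 and 3.04 CPM in WT ligated and 7.13, 74.6 and 15.9 CPM in CybbKO ligated libraries. WT naive replicate 1 was the second highest of the 12, above 2 of the 3 CybbKO ligated libraries. The interaction of Cxcl9 was 5.28 (standard error 1.92), 1.67 without that library and 3.79 without CybbKO ligated replicate 2. Cxcl10, a chemokine for the same receptor, was at 4.01 (standard error 1.46), 1.90 without the first of these and 3.10 without the second.

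Over the whole list the median was 0.30, with 0 genes at p under 0.05, without WT naive replicate 1, and 0.46, with 0 genes, without CybbKO ligated replicate 2. Without CybbKO naive replicate 3 it was 1.57, with 10 genes. The guanylate-binding protein gene Gbp2 had an interaction of 1.70 (standard error 0.86), with an interval that held 0. In ligated tissue alone, the CybbKO libraries lay above the WT libraries for Cxcl9, Cxcl10 and Gbp2. The 24 type I interferon response genes had a median of 0.47, with 19 above 0 and 0 at p under 0.05, while 2 were in DESeq2. The median was -0.09, with 9 above 0, without WT naive replicate 1 and 0.15, with 15 above 0, without CybbKO ligated replicate 2. It was 0.20 without CybbKO naive replicate 1, 0.30 without WT ligated replicate 1, and 0.70, with 3 genes at p under 0.05, without CybbKO naive replicate 3.

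Monocyte and macrophage genes had smaller interactions with smaller errors. All 18 tested members (19 listed) lay above 0, 7 had a p under 0.05, and the median was 0.83, which stayed between 0.65 and 0.85 with each library left out, with 2 genes at p under 0.05 without WT ligated replicate 1, 4 without CybbKO naive replicate 2 or WT naive replicate 3, and 5 to 7 otherwise. The median difference from WT was 0.47 in ligated and -0.24 in naive tissue. Their summed level was 782 to 979 CPM in WT naive, 834 to 1171 CPM in CybbKO naive, 1242 to 1285 CPM in WT ligated and 1440 to 1770 CPM in CybbKO ligated libraries. In bulk tissue, fewer cells of a type and less RNA per cell cannot be told apart.

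The complement genes C1qa, C1qb and C1qc, which encode the chains of C1q and are made by tissue macrophages, had interactions of 0.90 (standard error 0.34), 1.01 (0.29) and 0.95 (0.38). C1qb was at 8.50, 8.35 and 12.3 CPM in WT naive and 7.94, 6.44 and 7.96 CPM in CybbKO naive libraries. It was at 11.9, 18.5 and 13.4 CPM in WT ligated and 22.01, 25.1 and 20.7 CPM in CybbKO ligated libraries. CybbKO lay below every WT library in naive tissue and above every WT library in ligated tissue.

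For Fcgr3 the genotypes were apart in ligated tissue only, and for Mertk in naive tissue only. Fcgr3, an activating Fc gamma receptor, was at 5.30, 5.50 and 6.34 CPM in WT naive, 3.95, 5.94 and 4.33 CPM in CybbKO naive, 6.17, 9.37 and 10.02 CPM in WT ligated and 17.2, 13.2 and 19.6 CPM in CybbKO ligated libraries, with an interaction of 1.24 (standard error 0.33). Only the ligated genotypes were apart. Mertk, the receptor tyrosine kinase through which macrophages take up apoptotic cells, was at 9.65, 9.52 and 11.5 CPM in WT naive, 6.23, 8.10 and 5.95 CPM in CybbKO naive, 9.33, 9.42 and 10.8 CPM in WT ligated and 12.9, 10.5 and 13.3 CPM in CybbKO ligated libraries. Its genotypes were apart in naive tissue and overlapped in ligated tissue, and the interaction was 0.91 (standard error 0.25).

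Further myeloid receptors had interactions above 0. Fcgr1, the high-affinity receptor for IgG, had one of 1.33 (standard error 0.41), Pirb, an inhibitory immunoglobulin-like receptor, one of 1.48 (0.44), and Igsf6, an immunoglobulin superfamily gene of myeloid cells, one of 1.23 (0.37). Csf1r, the receptor that macrophages and osteoclast precursors need, had 0.78 (0.27). Cd14, the co-receptor for lipopolysaccharide, had 1.47 (0.59), and Mrc1, the mannose receptor, 0.93 (0.39). Several of these genes were named for a small p or taken after their values were seen, so they stand for no list.

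**Figure D2:**
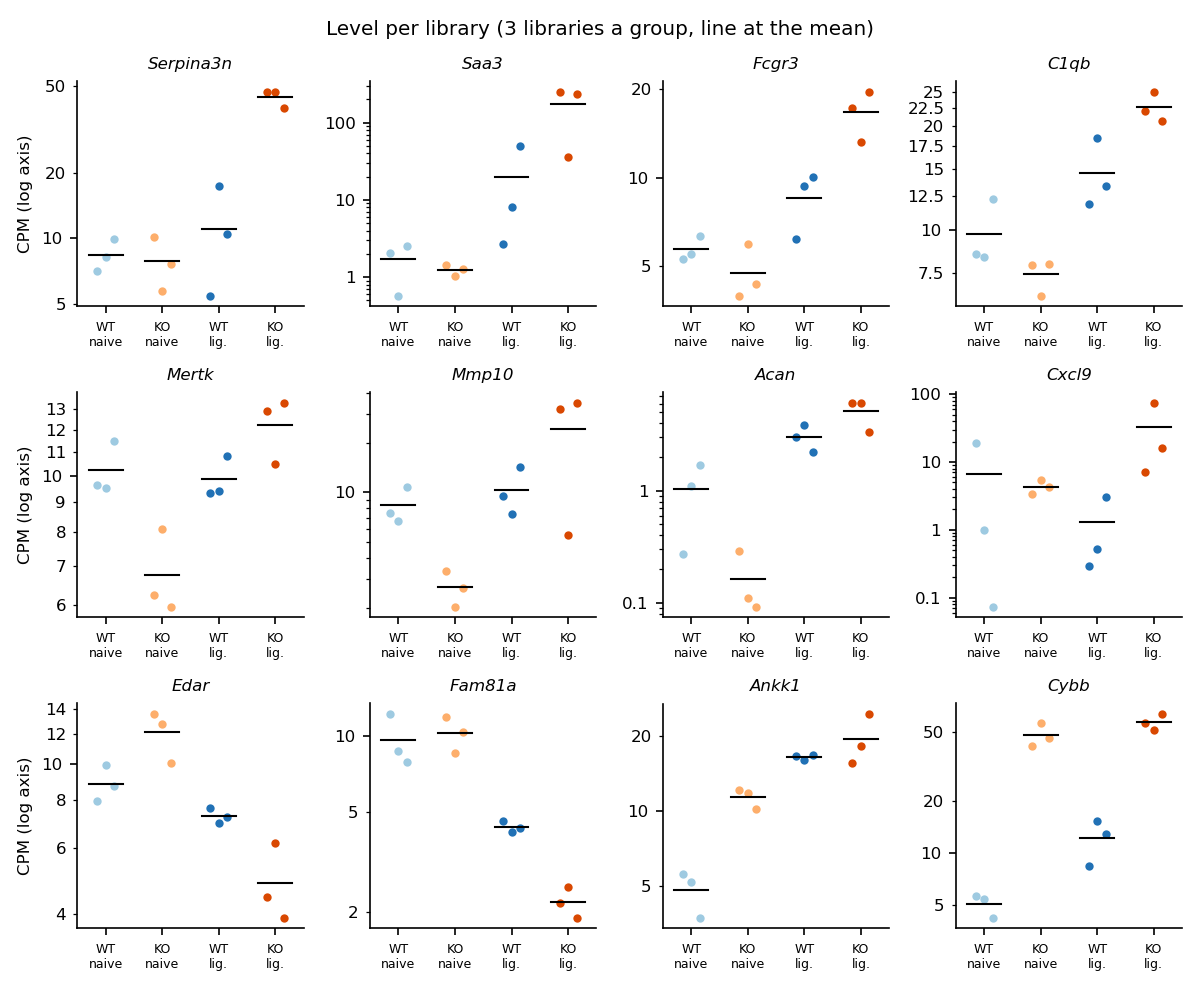
Level of 12 genes in CPM (log axis) in each of the 3 libraries of WT naive, CybbKO naive (KO), WT ligated and CybbKO ligated gingiva, with a line at the group mean. The CybbKO ligated libraries of Serpina3n, Fcgr3 and C1qb lie above all WT ligated ones, those of Edar and Fam81a lie below them, and the libraries of Mertk, Mmp10 and Ankk1 are apart between the genotypes in naive tissue and overlap in ligated tissue.

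Most neutrophil genes lay above 0, and few had a p under 0.05. The neutrophil receptor and identity list had 23 tested members of 25, 20 above 0 and 3 at p under 0.05, with a median of 0.95. Without WT ligated replicate 3 there were 9 at p under 0.05, with a median of 1.47, and without WT ligated replicate 1 there were 3, with a median of 0.55. The median was 0.63 without CybbKO naive replicate 2. The summed level of this list was 1475 to 2263 CPM in WT naive and 1402 to 2756 CPM in CybbKO naive libraries. It was 1151 to 1914 CPM in WT ligated and 1508 to 1959 CPM in CybbKO ligated libraries, which overlapped. The neutrophil granule list had 14 tested members of 18, 11 above 0 and 2 at p under 0.05, with a median of 0.70. That median was 0.29 without WT ligated replicate 1, 0.42 without WT naive replicate 1 and 1.09 without WT ligated replicate 3, and the number was 0 in 5 of the 12 fits with a library left out. Elane, Mpo, Prtn3 and Ctsg, the genes of the primary granule proteases and myeloperoxidase, were below the filter. Camp and Cd177 of this list and Ly6g and Mrgpra2b of the receptor list passed the filter only through the CybbKO ligated libraries, so their values are no support, and without them the medians were also 0.70 and 0.95. Il1r2, the decoy receptor for interleukin-1, was at 12.2, 10.7 and 10.8 CPM in WT naive, 10.6, 9.96 and 7.20 CPM in CybbKO naive, 10.2, 10.05 and 16.3 CPM in WT ligated and 23.3, 17.9 and 28.1 CPM in CybbKO ligated libraries. It was separated in both tissues in opposite directions, by a narrow margin in naive tissue, with an interaction of 1.21 (standard error 0.33). Cxcr2, the receptor through which neutrophils follow CXC chemokines, had an interaction of 1.30 (standard error 0.45).

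For the most abundant neutrophil genes the 95% intervals held 0. S100a8, a subunit of calprotectin, was at 333, 131 and 114 CPM in WT naive, 361, 380 and 306.5 CPM in CybbKO naive, 597, 1047 and 1509 CPM in WT ligated and 1784, 966 and 4551 CPM in CybbKO ligated libraries. CybbKO naive replicates 1 and 2 already exceeded all WT naive libraries, and the interaction was 0.35 (standard error 0.76). Its partner S100a9 had 0.61 (standard error 0.76), and Csf3r, the receptor for the neutrophil growth factor G-CSF, had 0.89 (0.76), and the intervals of all 3 held 0.

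Cytokines and the chemokines that draw neutrophils mostly had interactions whose 95% intervals held 0. The 10 neutrophil-recruiting chemokine and growth factor genes had a median of 0.05, with 5 above 0 and 5 below it, and 0 at p under 0.05. That median took either sign with single libraries left out, from -0.55 without WT naive replicate 1 to 1.16 without WT ligated replicate 3. Of the 16 tested genes of the inflammatory cytokine list 13 lay above 0 and 2 had a p under 0.05. These were Il19 at 4.61 (standard error 1.83) and Nos2, which encodes the inducible nitric oxide synthase, an enzyme and no cytokine, at 1.43 (0.62). Il19, a cytokine of the interleukin-10 family, had under 0.21 CPM outside CybbKO ligated tissue, and its interaction was 0.56 without WT naive replicate 1. It passed the filter only through the CybbKO ligated libraries, as did Il6 and Il12b, so its p is no support, and among the cytokine genes with at least 10 counts in every library 0 had a p under 0.05. Without WT ligated replicate 3, the cytokine median moved from 0.51 to 1.41, with 8 genes at p under 0.05. It was 0.32, with 1 gene, without WT ligated replicate 1 and 0.33, with 0 genes, without WT naive replicate 1, and there were 0 such genes without CybbKO naive replicate 3 or in limma-voom. On all 12 libraries the cytokine median was 0.95 in limma-voom and 0.77 with the replicate block.

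For 16 genes that encode factors the study discusses, some of which it measured in other samples or took from earlier work, an exact two-sided permutation test of the difference of differences shuffled the genotype labels within ligated and within naive libraries. Over its 400 arrangements the smallest p it can give is 0.005, and the p ran from 0.16 for Il6 and Tnfrsf11a to 0.985 for Il1a, with adjusted values from 0.907 to 0.985. Its null is that the genotypes differ in neither tissue, which Cybb does not meet, so its exact p of 0.605 carries no information. Il1b was at 17.5, 12.2 and 16.9 CPM in WT naive, 34.5, 9.82 and 23.9 CPM in CybbKO naive, 24.3, 42.1 and 98.7 CPM in WT ligated and 162, 99.5 and 186 CPM in CybbKO ligated libraries. Its ligated genotypes were apart by a narrow margin and the naive ones overlapped, with an interaction of 0.89 (standard error 0.70, 95% interval -0.65 to 2.42, exact permutation p = 0.265). The interaction was 1.94 (standard error 1.74) for Il6, 0.50 (0.55) for Tnf, 0.32 (0.90) for Cxcl1, 0.31 (0.93) for Csf3 and -0.59 (1.20) for Il17a, and each 95% interval held 0. On the log2(CPM + 0.5) scale of the permutation test the difference of differences was 0.26 for Il17a and 0.20 for Tnfrsf11b, the sign opposite to the fitted values.

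Genes of the extracellular matrix lay above 0 throughout, with errors that turned on CybbKO ligated replicate 2. All 19 fibroblast and collagen genes lay above 0, with a median of 0.79 and 0 at p under 0.05 in edgeR. On the same 12 libraries 5 were at p under 0.05 in DESeq2, 2 with the replicate block and 1 without the filter on low counts. The median difference from WT was 0.25 in ligated and -0.51 in naive tissue. Col1a1, the chain of type I collagen, was at 239, 310 and 519 CPM in WT naive, 318, 120 and 220 CPM in CybbKO naive, 765, 874 and 1314 CPM in WT ligated and 1667, 819 and 1451 CPM in CybbKO ligated libraries. Its genotypes overlapped in both tissues, with an interaction of 1.12 (standard error 0.55), and Col3a1 had one of 0.94 (0.54), and both intervals held 0. Without CybbKO ligated replicate 2, 18 of the 19 genes had a p under 0.05 and the median was 1.15. Without CybbKO naive replicate 1 there were 7 such genes, and 5 without WT ligated replicate 3 or WT naive replicate 1.

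All 15 matrix protease and inhibitor genes also lay above 0, with 4 at p under 0.05 in edgeR, 6 in DESeq2 and a median of 0.77. Without CybbKO ligated replicate 2 it was 12 genes and 1.13, and without WT ligated replicate 3 it was 6 genes and 1.07. It fell to 2 genes in 7 of the 12 fits with a library left out and in limma-voom, with a median of 0.51 without CybbKO ligated replicate 1. Mmp10, stromelysin-2, was at 7.49, 6.74 and 10.9 CPM in WT naive, 3.35, 2.03 and 2.65 CPM in CybbKO naive, 9.46, 7.43 and 14.3 CPM in WT ligated and 32.1, 5.54 and 34.9 CPM in CybbKO ligated libraries. It was apart in naive tissue, and in ligated tissue CybbKO replicate 2 lay below every WT library. The interaction was 2.86 (standard error 0.75), and 3.33 without that library.

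Mmp12, the macrophage elastase, was the reverse case among the CybbKO ligated libraries, where replicate 2 had the highest level, 40.3 CPM, and the others 18.1 and 17.4 CPM. Its interaction was 1.85 (standard error 0.54), and 1.34 without that library. Mmp13, the main collagenase of mouse connective tissue and bone, was at 38.1, 67.6 and 363 CPM in WT ligated and 554, 43.8 and 693 CPM in CybbKO ligated libraries. Its genotypes overlapped in ligated tissue and were apart in naive tissue, with an interaction of 2.85 (standard error 1.28). Timp1, an inhibitor of these enzymes, had 1.79 (0.78) and Mmp3, stromelysin-1, 1.05 (0.83) with an interval that held 0.

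Acan and Hapln1, which encode the cartilage-type proteoglycan aggrecan and the link protein that fixes it to hyaluronan, had interactions of 3.38 (standard error 0.82) and 2.21 (0.62). Acan was at 0.274, 1.11 and 1.71 CPM in WT naive, 0.289, 0.111 and 0.0915 CPM in CybbKO naive, 3.04, 3.85 and 2.21 CPM in WT ligated and 6.11, 6.02 and 3.33 CPM in CybbKO ligated libraries. Both genotypes overlapped in both tissues, and the low level in CybbKO naive tissue made up most of the difference, -2.61 against 0.76 in ligated tissue. Hapln1 was separated in both tissues in opposite directions, at levels under 3 CPM in every library.

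For the RANK ligand and its receptors the 95% intervals held 0. Tnfsf11 encodes RANKL, the cytokine that drives osteoclasts, Tnfrsf11a its receptor RANK, and Tnfrsf11b the decoy receptor osteoprotegerin. Tnfsf11 was at 0.821, 0.707 and 4.75 CPM in WT ligated and 7.78, 0.455 and 10.2 CPM in CybbKO ligated libraries, and at 0.222 to 0.487 CPM in the naive ones. The ligated genotypes overlapped widely, and the interaction was 1.68 (standard error 1.42). It was 1.17 (0.62) for Tnfrsf11a, with 0.48 when WT naive replicate 3 was left out, and -0.03 (0.53) for Tnfrsf11b, and all 3 intervals held 0. The 12 tested osteoclast effector genes had a median of 0.31, 9 above 0 and 0 at p under 0.05, with Ctsk, the collagen-degrading cathepsin K, at 0.65 (0.64, interval holding 0), and the 11 osteoblast and bone genes had a median of 0.44. Without WT ligated replicate 3 the osteoclast median was 1.09, with 5 genes at p under 0.05, and without CybbKO ligated replicate 2 it was 0.64, with 4 genes, while it was 0.17 without WT ligated replicate 1. The osteoblast median ran from 0.10 without CybbKO ligated replicate 1 to 0.98 without WT ligated replicate 3.

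Other genes with the smallest p above 0 belonged to none of these lists. Fkbp5, a glucocorticoid-induced chaperone partner, was at 33.5, 37.8 and 23.9 CPM in WT naive, 19.5, 25.8 and 18.2 CPM in CybbKO naive, 12.6, 12.4 and 14.9 CPM in WT ligated and 15.7, 35.5 and 22.4 CPM in CybbKO ligated libraries. It was lower with the ligature in WT, with a response of -1.25, and not in CybbKO, with 0.21, and its interaction was 1.47 (standard error 0.38). Tmprss2, a transmembrane serine protease of epithelia, had 2.28 (0.61), and its WT naive libraries were uneven at 10.3, 3.70 and 17.2 CPM beside 3.00, 3.00 and 2.41 CPM in CybbKO naive. Without WT naive replicate 3, the library with high gland genes, it was 1.71. Ism1, a secreted protein, had 1.08 (0.26), and Prdm16, a transcriptional regulator, 1.21 (0.35).

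Fewer genes had an interaction below 0 at a small p than above it. Edar, the ectodysplasin receptor of teeth, hair and glands, was at 7.95, 9.90 and 8.71 CPM in WT naive, 13.6, 12.8 and 10.04 CPM in CybbKO naive, 7.64, 6.99 and 7.24 CPM in WT ligated and 4.44, 6.18 and 3.90 CPM in CybbKO ligated libraries. CybbKO lay above every WT library in naive tissue and below every one in ligated tissue, with an interaction of -1.04 (standard error 0.28). The homeobox genes Isl1 and Dlx6 had -1.04 (0.30) and -1.28 (0.40), and for both the ligated genotypes were apart and the naive ones overlapped. These 3 genes were named for their small p and stand for no list.

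The remaining genes below 0 differed in which tissue made the interaction. Fam81a was at 12.3, 8.73 and 7.91 CPM in WT naive, 11.9, 8.57 and 10.4 CPM in CybbKO naive, 4.60, 4.16 and 4.31 CPM in WT ligated and 2.17, 2.51 and 1.89 CPM in CybbKO ligated libraries. Its genotypes overlapped in naive tissue only, with an interaction of -1.09 (standard error 0.30). Ankk1, a kinase gene beside the dopamine receptor gene Drd2, was at 5.57, 5.19 and 3.72 CPM in WT naive, 12.1, 11.8 and 10.2 CPM in CybbKO naive, 16.6, 16.01 and 16.7 CPM in WT ligated and 15.6, 18.2 and 24.5 CPM in CybbKO ligated libraries. Here the genotypes were apart in naive tissue only, with an interaction of -0.99 (standard error 0.28).

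Slc2a12, a glucose transporter gene, had -0.74 (standard error 0.22) and was separated in both tissues, by 10.2 to 11.9 CPM in WT against 8.67 to 9.53 CPM in CybbKO when ligated and by 4.43 to 5.36 CPM against 6.41 to 7.71 CPM when naive. Vldlr, the very low density lipoprotein receptor, had -0.66 (0.21), Aipl1, a photoreceptor chaperone gene, -1.55 (0.46) at levels under 3.3 CPM, and Spef1, a gene of the sperm flagellum and microtubules, -0.48 (0.16). Over the 12 fits with a library left out and 8 other settings, the only call was Gm5678, a predicted gene on chromosome 16 from 93628097 to 93630451, without WT naive replicate 2. Its interaction was then -10.71 with an adjusted p of 0.0201 in edgeR, beside -6.32 with all libraries, and it had 0 to 1.31 CPM in every library.

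**Figure D3:**
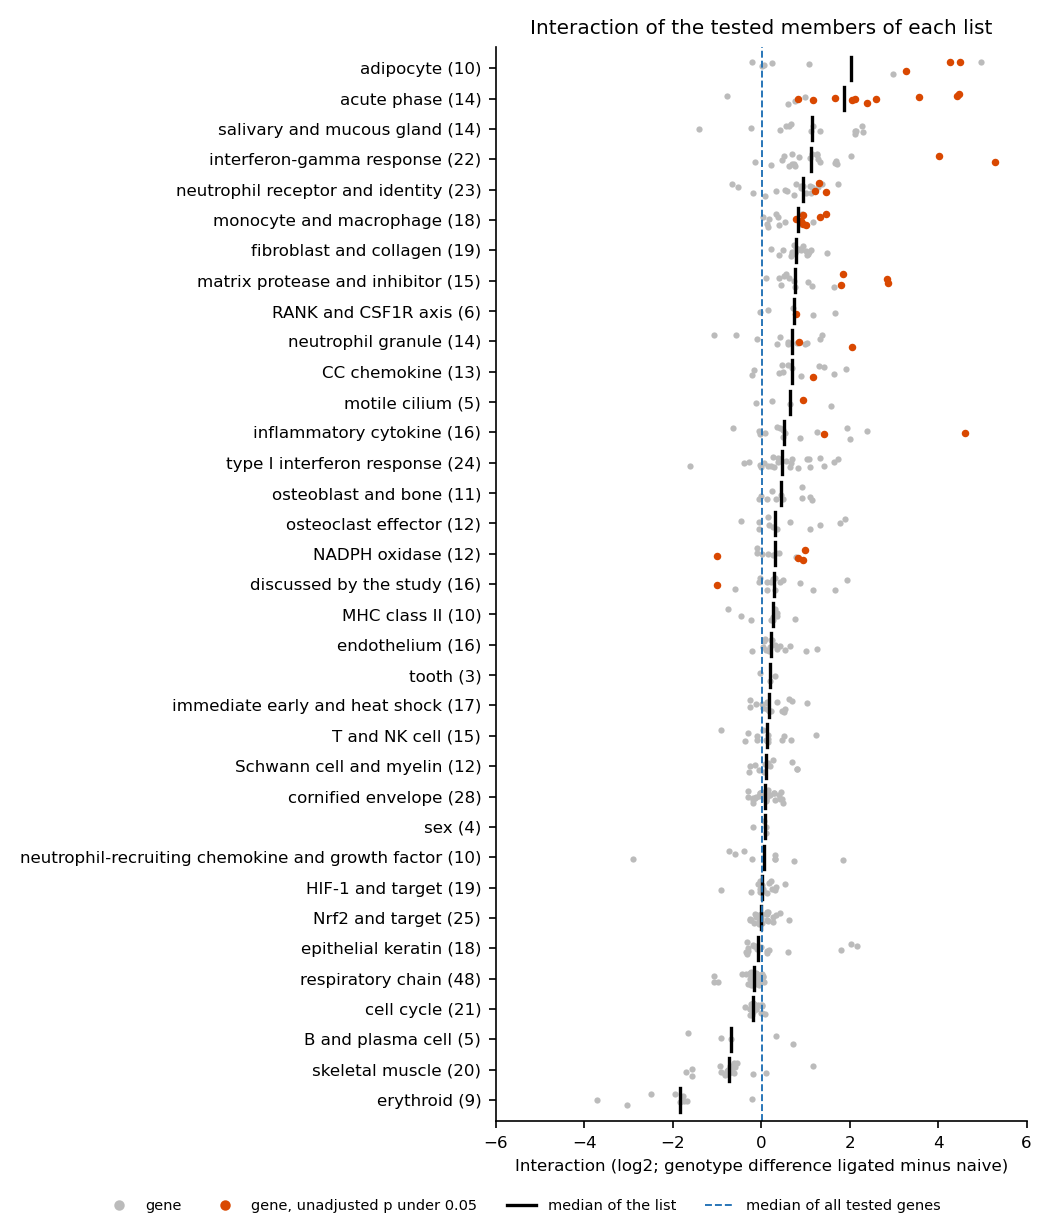
Interaction (log2) of each tested member of the 35 gene lists, with the number of tested members in brackets, the list's median as a black bar and the median of all tested genes, 0.02, as a dashed line. Members at an unadjusted p under 0.05 are orange: 10 in the acute phase list, 7 in the monocyte and macrophage list and 0 in most lists, and the erythroid and skeletal muscle medians lie lowest of those with over 5 members, at -1.84 and -0.74.

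Lists of other cell types and tissues carried values that move with the interaction, and their part in the results above was not tested. Hp, Lcn2, Mmp9, Csf1r and Il17a each belong to more than 1 list. The adipocyte list had a median of 2.03 over 10 tested genes, 1.08 without Cidec, which passed the filter only through the CybbKO ligated libraries, and 0.44 without CybbKO ligated replicate 2, where Adipoq was at 7.36 CPM and Plin1 at 4.44 CPM while the other 11 libraries had at most 1.30 and 0.404 CPM. It was 0.69 without WT naive replicate 3, 0.64 over the 8 members with a value in DESeq2, 0.77 in limma-voom and 0.13 over the 4 members with at least 10 counts in every library. Of the 10 adipocyte genes 3 had a p under 0.05. That number was 0 in limma-voom, with the replicate block and without CybbKO ligated replicate 2, and 5 without CybbKO ligated replicate 3. The salivary and mucous gland list had a median of 1.14 over 14 genes, which was -1.35 without WT naive replicate 3 and -0.58 in limma-voom. All 9 erythroid genes lay below 0 with a median of -1.84, which was -0.10 without WT ligated replicate 3 and -4.54, with 8 genes at p under 0.05, without CybbKO ligated replicate 2. Of 20 skeletal muscle genes 18 lay below 0, with a median of -0.74, and 0 had a p under 0.05. That median ran from -1.40 without CybbKO ligated replicate 2 to -0.32 without CybbKO naive replicate 3.

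The 18 tested keratin genes had a median of -0.08, the 28 cornified envelope genes 0.08 and the 12 Schwann cell genes 0.11. Of 16 endothelial genes 15 lay above 0, with a median of 0.23 and 0 at p under 0.05. That median ran from 0.065, with 12 above 0, without WT naive replicate 3 to 0.43 without WT ligated replicate 3. Leaving out WT ligated replicate 1 gave 0.092 and leaving out CybbKO ligated replicate 1 gave 0.11, with 11 above 0 in each, and the median was 0.32, with 4 genes at p under 0.05, without CybbKO ligated replicate 2. T and NK cell genes had 0.14 over 15 tested members. The 10 MHC class II genes had 0.27, which was 0.061 without CybbKO ligated replicate 2, 0.070 without CybbKO naive replicate 2 and 0.46 without CybbKO naive replicate 3. Of 48 nuclear-encoded respiratory chain genes, 4 lay above 0, with a median of -0.16 (-0.27 to -0.05 with single libraries left out) and 0 at p under 0.05, and of 21 cell cycle genes 4 lay above 0, with a median of -0.18. Several of these medians turned sign with 1 library left out. For the cell cycle it was 0.13, with 17 of 21 above 0, without CybbKO naive replicate 3, and for T and NK cells -0.44, with 4 of 15 above 0, without WT naive replicate 1. The keratin median reached 0.17 without CybbKO naive replicate 1 and the cornified envelope median -0.08 without CybbKO naive replicate 2.

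**Figure D4:**
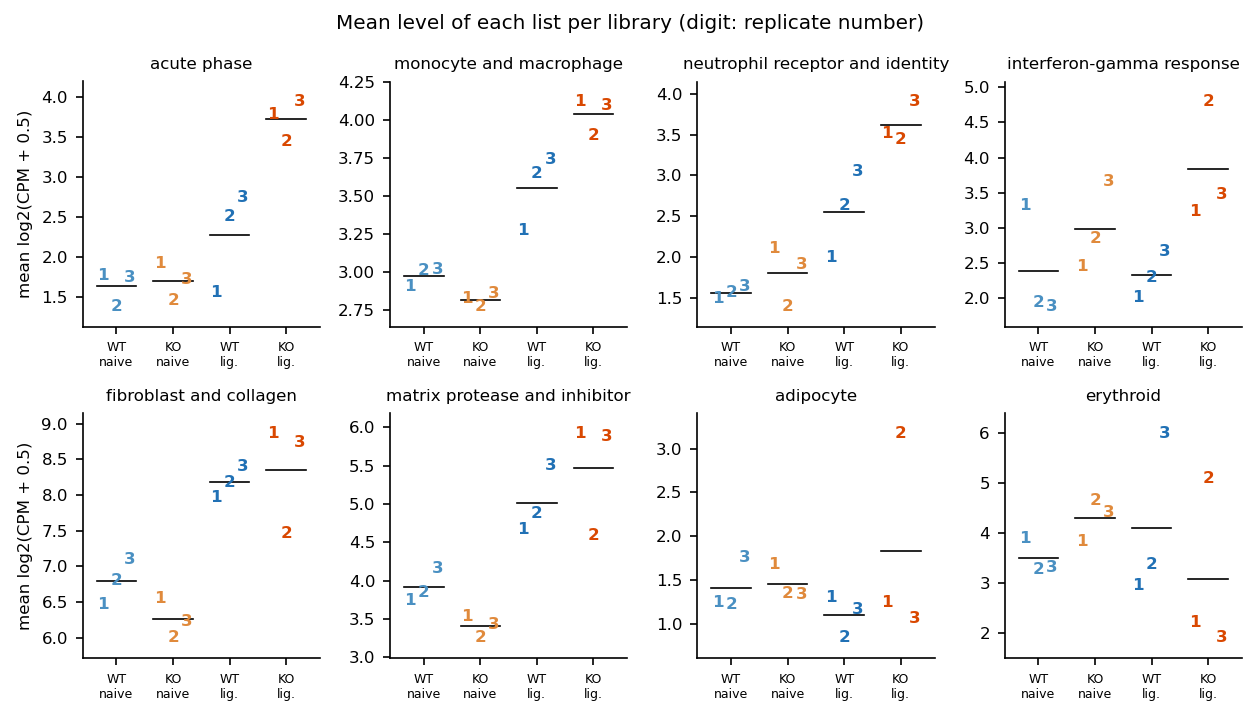
Mean log2(CPM + 0.5) of the tested members of 8 gene lists in each library, drawn as its replicate number, with a line at the group mean (KO, CybbKO). CybbKO ligated libraries lie above WT ligated ones for the acute phase, macrophage and neutrophil receptor lists, while in the fibroblast, protease and adipocyte lists CybbKO ligated replicate 2 lies away from the other CybbKO ligated libraries.

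The antioxidant and hypoxia pathways that the study also followed had no gene at p under 0.05. The 25 genes of the Nrf2 list had a median of 0.00, with 14 above 0, and the 19 genes of the HIF-1 list one of 0.01, with 11 above 0. Without WT ligated replicate 1 the HIF-1 median was -0.07, with 5 above 0, and without WT ligated replicate 3 it was 0.24, with 16. The Nrf2 median ran from -0.03 to 0.08 with single libraries left out, with 9 to 17 of its genes above 0. Nfe2l2, which encodes Nrf2, was at 909, 1000 and 628 CPM in WT naive, 774, 740 and 704 CPM in CybbKO naive, 625, 610 and 435 CPM in WT ligated and 519, 534 and 531 CPM in CybbKO ligated libraries. The genotypes overlapped in both tissues, and the interaction was 0.12 (standard error 0.25, 95% interval -0.44 to 0.68). It was 0.27 (0.33) for the haem oxygenase gene Hmox1, 0.14 (0.28) for the quinone reductase gene Nqo1, 0.42 (0.27) for Gclc, the catalytic subunit of glutathione synthesis, and 0.23 (0.43) for Hif1a, and each of these intervals held 0.

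Leaving out single libraries moved the number of genes with a small p. The lowest number was 177, without WT ligated replicate 1, and the highest 986, without CybbKO ligated replicate 2. It was 667 without WT naive replicate 1 and 516 without WT ligated replicate 3. All 342 genes kept the sign of their interaction in each of the 12 fits with a library left out, and 95 of them had a p under 0.05 in all 12. The kept signs follow largely from choosing these genes at p under 0.05 on the same libraries. The 30 genes named for the smallest p, 15 in each direction, were among these 95, as follows in part from how they were chosen.

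**Figure D5:**
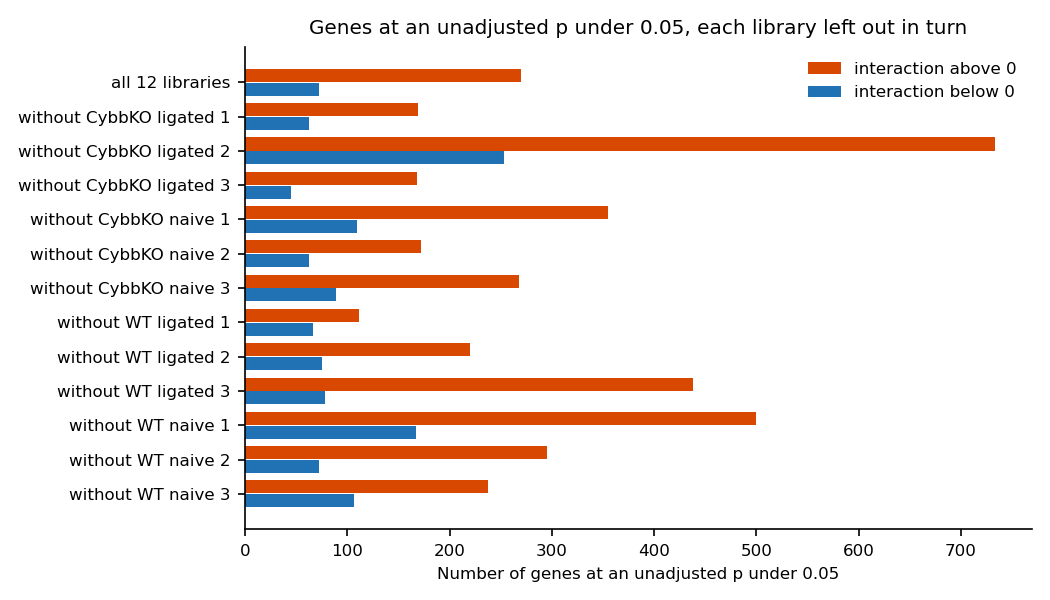
Number of genes at an unadjusted p under 0.05 for the interaction, above 0 (orange) and below 0 (blue), with all 12 libraries and with each left out in turn. Without CybbKO ligated replicate 2 there are 733 above and 253 below 0, against 270 and 72 with all libraries.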

How the data were processed

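Stranded mRNA libraries of gingival tissue were sequenced, 12 in all, 3 for each combination of genotype and ligature. The deposited table holds counts of reads per gene, which the authors made by aligning reads to the mouse genome and assigning them to genes, with no normalization. The study's methods name STAR and featureCounts, while the submitters' processing notes name FastQC 0.10.1 and HTSeq 0.10.0. Library totals were 27958819 to 42613423 counts, which limits precision mainly for genes of low level. Replicates are described as separate mice.

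Genes were filtered with filterByExpr, scaled by TMM and fitted over all 12 libraries with edgeR 4.0.16 (quasi-likelihood test, R 4.3.3), with p-values adjusted by Benjamini-Hochberg over the 15046 genes tested. CPM are TMM-scaled. Alternatives were DESeq2 1.42.0, its size factors in edgeR, library size only, no filter, a minimum of 10 counts in every library, a robust fit, limma-voom (limma 3.58.1), a replicate block and each library left out. Deviations from the group means correlated from -0.23 to 0.28 between same-numbered libraries of different groups. Between differently numbered ones they correlated from -0.34 to 0.43, and the numbers were not taken as pairs.

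Named genes were the 15 with the smallest p in each direction at a mean of at least 1 CPM, genes called under an alternative, genes for factors the study discusses and, per list, the 3 most abundant and 2 of smallest p; the text describes a selection of these. Cyba, Ncf1, Lbp, Cp, Gbp2, Cxcr2, C1qa, C1qc, Mrc1, Cd14, Mmp13, Mmp3, Timp1, Col1a1 and Nos2 were taken from the lists after their values were seen where the rule did not name them. The lists and the comparison were chosen with earlier results of these data known. Symbols from GENCODE M21 matched 21939 gene identifiers, and 26 had none.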

Additional observations from a re-analysis of the deposited data

Results flagged for a closer look

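Among the genes named by the rule, 7 had every library labelled CybbKO on one side of every WT library in ligated gingiva and on the other side in naive gingiva, which is why they are listed; over all tested genes 28 did so (0.186%). CybbKO was above WT when ligated and below when naive for Il1r2, with an interaction of 1.21 on the log2 scale, C1qb with 1.01 and Hapln1 with 2.21. The reverse held for Edar with -1.04, Slc2a12 with -0.74, Spef1 with -0.48 and Gm5678 with -6.32. None of the 7 passed the adjusted threshold of the edgeR interaction test with all libraries. With library sizes alone as the scaling, an alternative chosen after seeing the data, 23 genes were separated in this way.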

How the results depend on the processing

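On all 12 libraries edgeR called 0 genes, with 342 at an unadjusted p under 0.05. The 8 other settings also called 0, with 285 to 447 genes at an unadjusted p under 0.05. With a library left out the calls ran from 0 to 1, the 1 being Gm5678 at -10.71 without WT naive replicate 2, and the unadjusted count from 177 to 986. A fit with the replicate block called 0 and gave 306 genes at an unadjusted p under 0.05. The numbers were not taken as pairs, so this fit is given for completeness. Of the 72 genes whose interaction the text gives or that were followed with them, signs turned in the 8 other settings only for S100a8 (-0.015 in limma-voom) and Tnfrsf11b (0.22 in limma-voom and 0.070 with the replicate block). With single libraries left out signs turned for Csf3 (-0.59 to 1.30), Cxcl1 (-0.52 to 1.37), Hif1a (-0.16 to 0.54), Il17a (-1.25 to 0.50), Lcn2 (-0.14 to 1.24), Nfe2l2 (-0.031 to 0.29), Nqo1 (-0.093 to 0.29), S100a8 (-0.47 to 0.73), S100a9 (-0.29 to 1.00) and Tnfrsf11b (-0.45 to 0.55), and the cause was not tested. List medians turned sign too. That of the salivary and mucous gland list, 1.14, was -0.58 in limma-voom and -1.35 without WT naive replicate 3. That of the B and plasma cell list, -0.69, was 0.020 with at least 10 counts in every library, where 2 of its 5 genes were left. Medians near 0, such as those of the keratin, cell cycle, T and NK cell and recruiting chemokine lists, turned with single libraries left out. The error of 3 libraries per group, with a 95% interval that reached a median of 0.65 to either side, limits what could be called.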
